A study of Sus scrofa with 8 samples.

Results

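Fibroblasts of the lamina propria, the connective tissue under the olfactory epithelium (OE), were followed through 10 genes that they are known to express. The genes were picked by name, and 9 of the 10 matched 1 identifier each among the 22516 genes of the deposited tables. THY1, which encodes a small glycoprotein anchored to the cell surface, matched no identifier in the gene-name table and was not analysed here. The set was chosen because its members vary strongly from library to library, with FBLN1 as the example, so the spread over the libraries is given as a description and not as a finding. The 8 libraries came from 4 crossbred sows, 8 months old and in estrus, with a Landrace sire and a Rongchang dam. In the androstenone treatment group, the nasal cavity of 2 sows was sprayed with Boarmate, a commercial product that mainly contains the boar pheromone androstenone. The 2 control sows received no solution, so the groups differ in the carrier liquid and in the handling as well as in androstenone. OE was taken from the left and the right side 30 min after spraying, which gives 4 libraries per group, and the sources used here do not tell which libraries share a sow. The p-values below therefore measure the spread between libraries, part of which lies within a sow. The spray was given to whole animals, 2 per group. P-values and standard errors from 4 libraries per group can thus be too small.

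Fibroblasts build the collagen fibres, the microfibrils and the proteoglycans that hold connective tissue together. Type I and type III collagen form the fibres, and small leucine-rich proteoglycans such as decorin and lumican bind to their surface and set their width. Fibrillin makes up the microfibrils of elastic tissue, and fibulins are proteins of elastic fibres and of other matrix. Platelet-derived growth factor (PDGF) drives the growth and movement of fibroblasts and of the pericytes around small vessels through 2 receptors. In the nose, this tissue carries the vessels, the glands and the bundles of olfactory axons, and it lies on the bone and cartilage of the nasal skeleton.

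Levels of single genes are given as CPM, the counts scaled to a common library total after correction by the TMM factor, which allows for a few very abundant genes. Comparisons of level between genes use TPM, which is also scaled for transcript length. The deposited counts summed to 4177968 in control 1 and to 81579983 to 100685797 in the other 7 libraries. The study lists a read number for control 1 that is within the range of its other libraries, so this low sum belongs to the deposited counts and is not the sequencing depth, and its origin was not tested. With this total, control 1 held 48 counts of COL14A1, the rarest member, and 221 or more of each other member. In control 4, the 10 most abundant genes took 29.4% of all counts, against at most 9.02% elsewhere, and COL1A1 and COL1A2, the chains of type I collagen, together took 20.7%. Of 10 olfactory neuron markers, which check the labelled tissue, OMP matched no identifier. GNG13 and RTP1 were at most at 0.205 and 0.109 CPM in any library, and CNGA2 was at 0.737 to 12.2 CPM. These genes were picked here after their values were seen, and single levels of CNGA4, GNAL, STMN2 and GAP43 are not given. The most abundant of the list, ADCY3 and NCAM1, reached 43.3 and 373 CPM.

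COL3A1 (ENSSSCG00000016034) encodes type III collagen, which forms thin fibres in soft connective tissue. In the Sscrofa11.1 build its place is chromosome 15 from 93556914 to 93595678, and the coordinates of the other genes are of the same build. In control 1 to control 4 it stood at 1514, 10600.4, 404 and 31518 CPM. In androstenone 1 to androstenone 4 it stood at 506, 647, 2604 and 2709 CPM. Control 4 and control 2 were thus the highest libraries, control 3 lay below every androstenone library, and the groups overlapped. COL6A3 (ENSSSCG00000027331), a chain of the beaded filaments of type VI collagen on chromosome 15 from 137011549 to 137103687, had the same 2 highest libraries. It stood at 106, 659, 41.9 and 1989 CPM in the control group and at 32.5, 29.9, 119 and 111 CPM in the androstenone treatment group. COL14A1 (ENSSSCG00000005997) encodes a collagen that sits on the surface of larger fibres and lies on chromosome 4 from 18690197 to 18925111. It stood at 9.86, 42.8, 2.41 and 27.1 CPM in the control group and at 4.21, 1.1996, 53.2 and 40.4 CPM in the androstenone treatment group. Its highest library was androstenone 3, not control 4, and the groups overlapped here too.

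DCN (ENSSSCG00000000915) and LUM (ENSSSCG00000000916) encode decorin and lumican, and are close neighbours on chromosome 5, DCN from 91678601 to 91713925 and LUM from 91748871 to 91756381. DCN stood at 315, 807, 79.8 and 2605 CPM in the control group and at 48.0, 57.2, 486 and 390 CPM in the androstenone treatment group. LUM stood at 200, 562, 44.1 and 1512 CPM in the control group. Its androstenone libraries stood at 58.8, 48.3, 340 and 279 CPM. For both genes control 4 was the highest library and the groups overlapped. The LUM to DCN ratio of CPM ran from 0.553 to 0.697 over the control libraries, and with androstenone from 0.699 to 1.22, so that the groups met but did not overlap. This ratio was 1 of 10 looked at after the levels were known, and it was not tested.

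FBLN1 (ENSSSCG00000000010) encodes fibulin-1, a secreted glycoprotein of the matrix, and lies on chromosome 5 from 3839498 to 3927178. It stood at 434, 514, 32.9 and 343 CPM in the control group and at 105, 20.5, 830 and 643 CPM in the androstenone treatment group. Androstenone 3 and androstenone 4 were highest and androstenone 2 lowest, so that the androstenone treatment group held both ends of the range. FBN1 (ENSSSCG00000004658) encodes fibrillin-1, the main subunit of microfibrils, on chromosome 1 from 123102011 to 123359649. It stood at 59.4, 74.1, 9.62 and 86.7 CPM in the control group and at 12.2, 5.81, 169.2 and 168.6 CPM in the androstenone treatment group. As for FBLN1, both ends of the FBN1 range lay among the androstenone libraries.

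PDGFRA and PDGFRB encode the 2 PDGF receptors, of which the first is typical of fibroblasts and the second is shared with pericytes. PDGFRA (ENSSSCG00000008841), on chromosome 8 from 40966568 to 41021440, stood at 45.4, 81.6, 8.82 and 358 CPM in the control group and at 13.1, 8.22, 90.2 and 91.3 CPM in the androstenone treatment group. PDGFRB (ENSSSCG00000022741), on chromosome 2 from 151155753 to 151192818, stood at 144, 275, 12.9 and 384 CPM in the control group and at 29.4, 9.17, 219 and 183 CPM in the androstenone treatment group. Control 4 was highest and androstenone 2 lowest for both receptors, and the groups overlapped.

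**Figure D1:**
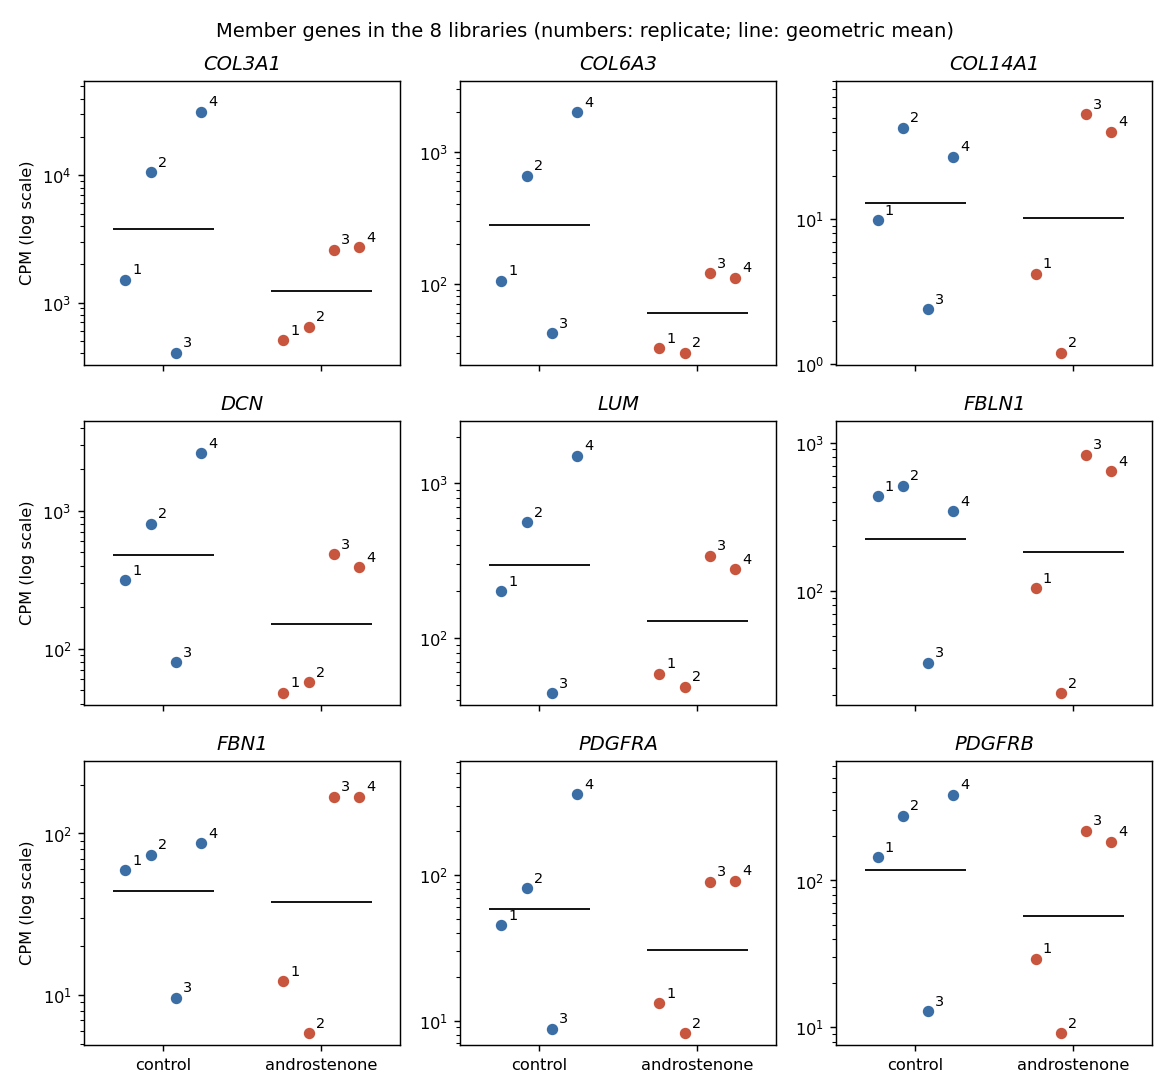
CPM (log scale) of the 9 members in each library, with control libraries in blue, androstenone libraries in red, the replicate number beside each point and a line at the geometric mean of the group. Control 3, androstenone 1 and androstenone 2 are the lowest points in all 9 panels, and the groups overlap in all 9.

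The members were chosen with their wide range over the libraries known, so this range and its distance from other genes are a description. The highest library exceeded the lowest by 29.1-fold for FBN1 and by 78.0-fold for COL3A1, and the other 7 members lay between these values. The standard deviation (SD) of log2 CPM over the 8 libraries was 1.84 to 2.201 for the members, against a median of 0.40 over the 13028 genes with a mean of at least 5 CPM. Control 3, androstenone 1 and androstenone 2 were the 3 lowest libraries for all 9 members. Between the third and the fourth lowest library lay a gap of 2.34-fold in COL3A1, the smallest of the 9, to 4.90-fold in PDGFRB, the largest. Of the 13028 genes, 17.4% had the same 3 lowest libraries. Among 96 genes at that level from the other matrix and fibroblast lists described below, 61 (63.5%) did, so the pattern is not particular to the members. As a share of all counts, the 9 members took 0.0656% in control 3, 0.079% in androstenone 1 and 0.0801% in androstenone 2. They took 0.329% in control 1, 1.53% in control 2, 2.67% in control 4, 0.508% in androstenone 3 and 0.510% in androstenone 4.

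In order of mean TPM over the 8 libraries, DCN came first at 2091 ± 2707 TPM (SD, n = 8 libraries), followed by COL3A1 at 1572 ± 2482 TPM. DCN exceeded COL3A1 in all 8 libraries. This order rests on the length scaling of TPM, since COL3A1 had the higher CPM in each library. DCN had 3.49 TPM per CPM against 0.145 to 0.539 in the other members, and the origin of this high value was not tested. FBLN1 at 197 ± 160 TPM and LUM at 170.4 ± 199.97 TPM came next, and FBLN1 was the higher of this pair in 5 of 8 libraries, a difference within their spread. COL6A3 at 70.5 ± 116 TPM and PDGFRB at 41.4 ± 34.3 TPM were also not apart, with COL6A3 the higher in 4 of 8 libraries. PDGFRA at 17.9 ± 21.5 TPM exceeded FBN1 at 10.6 ± 9.51 TPM in 6 of 8 libraries. PDGFRB exceeded PDGFRA in all 8 libraries. COL14A1 was the lowest member in every library, at 4.57 ± 4.26 TPM.

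The members did not vary as a single block. The likeness of 2 genes was measured as the SD over the 8 libraries of the log2 ratio of their CPM, which is 0 where the ratio is the same in every library and does not depend on the library total. Over the 36 pairs of members this SD ran from 0.36 to 1.88 log2 units, with a median of 0.89. With 1 library left out, the median ran from 0.72 without control 4 to 0.95 without control 3. The closest pairs were DCN with LUM (0.36), LUM with PDGFRA (0.36) and COL3A1 with COL6A3 (0.43). FBLN1 with FBN1 (0.53) and COL14A1 with FBN1 (0.54) formed a further close set. The most distant pair was COL6A3 with FBLN1 (1.88), followed by COL3A1 with FBLN1 (1.77). The Pearson correlation of log2 CPM was positive for all pairs, and lowest for COL6A3 with FBLN1, at 0.60. COL3A1 was at 91.8 times the CPM of FBLN1 in control 4, 20.6 times in control 2 and 31.5 times in androstenone 2. In the other 5 libraries this ratio was 3.49 in control 1, 12.3 in control 3, 4.83 in androstenone 1, 3.14 in androstenone 3 and 4.21 in androstenone 4. The collagens of types III and VI thus peaked in control 4 relative to fibulin-1, and androstenone 3 held the lowest ratio. PDGFRB stood between the sets, at 0.64 from PDGFRA and 0.69 from FBLN1. For control 1 to control 4 the CPM of PDGFRB was 3.17, 3.38, 1.47 and 1.07 times that of PDGFRA, and for androstenone 1 to androstenone 4 it was 2.24, 1.11, 2.43 and 2.01 times, with overlap.

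**Figure D2:**
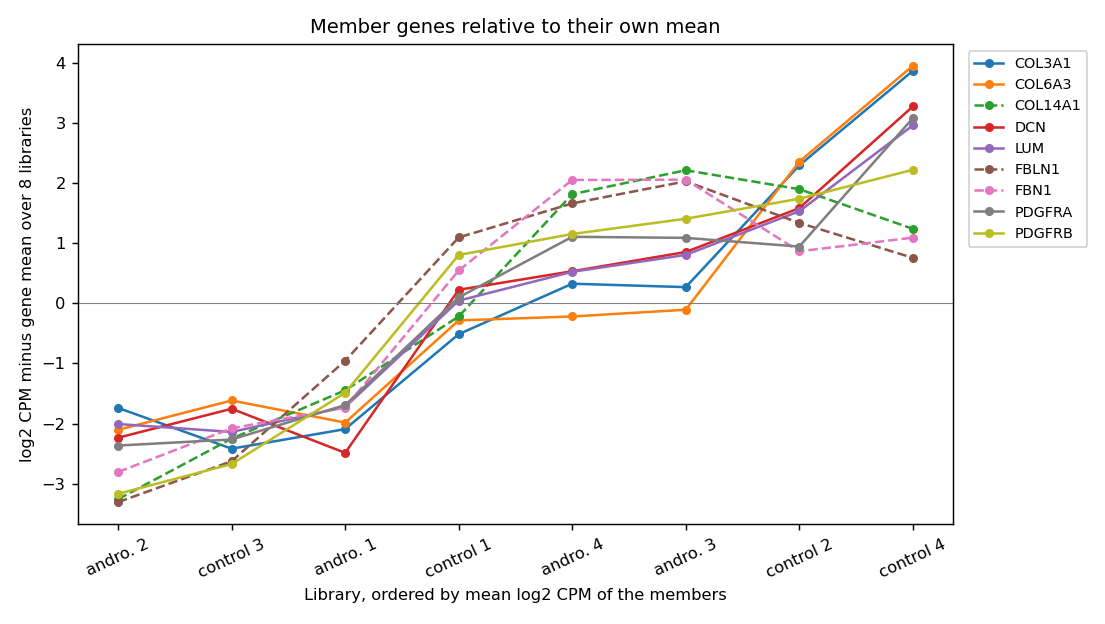
Log2 CPM of each member minus its own mean over the 8 libraries, with libraries ordered by the mean log2 CPM of the 9 members and with COL14A1, FBLN1 and FBN1 as dashed lines. The dashed lines are highest in androstenone 3, for FBN1 only just above androstenone 4, and the solid lines are highest in control 4.

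**Figure D3:**
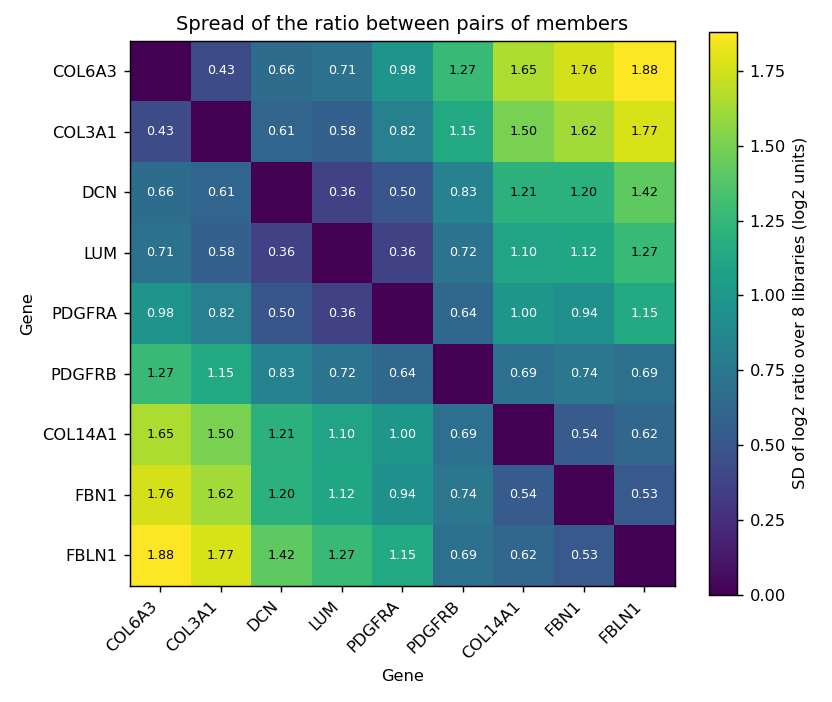
SD over the 8 libraries of the log2 ratio between each pair of members, in log2 units, from dark (ratio nearly the same in every library) to bright. The values run from 0.36 for DCN with LUM to 1.88 for COL6A3 with FBLN1.

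Outside the members, the genes most like the mean of the members were sought among 11682 named genes with a mean of at least 5 CPM. The closest were PXDN, which encodes a matrix peroxidase that crosslinks basement membrane collagen (SD of the log2 ratio 0.20), CCDC80, a secreted matrix protein that is also on the fibroblast marker list (0.21), and JCAD, a protein of endothelial cell junctions (0.21). CAND2 (0.22), the small GTPase gene RASL11B (0.25) and the junction adhesion gene JAM3 (0.25) followed. NID2, which encodes the basement membrane protein nidogen-2, and EHD2, a protein of caveolae, were at 0.26 each. All 8 were highest in control 4 and lowest in androstenone 2, with PXDN at 118 and 3.01 CPM and NID2 at 123 and 2.67 CPM. These values describe 8 libraries from 4 sows, and 3 of the 8 genes were again among the nearest without control 4. Taken member by member, a choice made after the values were seen, the nearest gene to COL3A1 was THBS2, a matricellular thrombospondin (0.19), and that to COL6A3 was COL16A1 (0.20). COL14A1 was nearest to EGFL6, which encodes a secreted protein with EGF repeats (0.20). FBLN1 was nearest to CPXM1, a secreted carboxypeptidase-like protein (0.23), FBN1 to ITIH5 (0.42) and PDGFRB to ADGRA2, an adhesion receptor (0.23). DCN was nearest to APLN, the gene of the peptide apelin (0.27), LUM to GPR173 (0.18) and PDGFRA to TFPI2, a protease inhibitor (0.24).

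The comparison of the androstenone treatment group with the control group asks whether expression in the OE changed within 30 min of the spray. It was fitted with edgeR's quasi-likelihood test on all 21318 genes with at least 1 count. Of all genes tested, 6.42% passed the study's cutoff of unadjusted p below 0.05 and a change by at least 1 log2 unit, with 2.04% higher and 4.38% lower in the androstenone treatment group. After Benjamini-Hochberg adjustment 0.00% passed, that is 0 genes, while 2415 genes (11.3%) had an unadjusted p below 0.05 in the same edgeR fit. By adjusted p, DESeq2 called 670 genes, edgeR's exact test 154, its likelihood ratio test 200 and limma voom 0. Of the 9 members, 1 passed the unadjusted cutoff as lower, 0 passed as higher and 0 passed after adjustment. Since the set was proposed with this contrast known, the count is a description. The groups overlapped for all 9 members, while they did not overlap for 6.53% of all genes tested (3.89% higher and 2.64% lower). The fitted log2 fold change was below 0 for 6 of the 9 members and for 51.8% of all genes tested.

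The member past the cutoff was COL6A3, whose control libraries averaged 699 ± 904 CPM and whose androstenone libraries averaged 73.1 ± 48.5 CPM (SD, n = 4 libraries each). It was lower by a log2 fold change of -3.26, with a standard error of 1.16, and edgeR's quasi-likelihood test gave an adjusted p of 0.416. Without control 4 the log2 fold change of COL6A3 was -1.87, and it no longer passed, at an unadjusted p of 0.0865 in the same edgeR test across all genes. It also missed the cutoff without androstenone 1 (unadjusted p of 0.0535) and without androstenone 2 (0.0512). DESeq2 gave COL6A3 an adjusted p of 0.0392, edgeR's exact test 0.161 and its likelihood ratio test 0.118, and over all alternatives the adjusted p ran from 0.0392 to 0.893. COL3A1 averaged 11009 ± 14416 CPM in the control group and 1616 ± 1203 CPM with androstenone, with a log2 fold change of -2.77 (standard error 1.25), and of -1.36 without control 4. DCN had a log2 fold change of -1.96 (standard error 1.12), LUM of -1.67 (1.04), PDGFRA of -1.29 (1.13) and PDGFRB of -0.89 (1.10). Without control 4, these were -0.70 for DCN, -0.56 for LUM, 0.17 for PDGFRA and -0.38 for PDGFRB.

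For the other 3 members the sign itself was not settled. COL14A1 had a fitted log2 fold change of 0.26 (standard error 1.16), FBLN1 of 0.27 (1.08) and FBN1 of 0.63 (1.06). The means of log2 CPM differed by -0.33, -0.28 and -0.21 in the same order, a mean in which the highest libraries weigh less than in the fit. FBLN1 averaged 331 ± 211 CPM in the control group and 399 ± 398 CPM with androstenone (SD, n = 4 libraries each). The SD within the androstenone treatment group was thus about as large as its mean. In edgeR's quasi-likelihood test, the adjusted p of the 8 members other than COL6A3 ran from 0.448 to 0.938. The median log2 fold change of the 9 members was -1.29, against -0.02 over all genes tested, and -0.38 without control 4.

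The rest of the matrix programme was read from 7 lists of 104 genes that were found in the tables and tested. In all, 30 of the 104 (28.8%) passed the unadjusted cutoff as lower in the androstenone treatment group and 0 as higher, against 4.38% and 2.04% of all genes. After adjustment 0 passed, and the smallest adjusted p in edgeR's quasi-likelihood test was 0.393. Without control 4 the count fell to 6 of 104 (5.77%), against 3.71% of all genes, and all 6 were among the 30. They were KERA, ASPN, OMD and OGN, which encode leucine-rich proteoglycans, with PCOLCE2, an enhancer of collagen processing, and the matrix glycoprotein gene TNC. Without control 1 and control 4 together, a setting added after the values were seen, 11 passed (10.6%, against 3.18% of all genes as lower). Without androstenone 1 the count was 16 (15.4%, against 2.66%), and without androstenone 2 it was 17 (16.3%, against 2.75%). Without control 3 it was 51 (49.0%, against 6.89%).

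Among 15 other interstitial collagen genes, 7 passed as lower, with a median log2 fold change of -2.14, and of -0.62 without control 4. COL1A1, on chromosome 12, stood at 3292, 12522, 3011 and 145059 CPM in the control group and at 646, 3696, 1883 and 1772 CPM in the androstenone treatment group. COL1A2, on chromosome 9, stood at 2702, 12263, 2581 and 156373 CPM in the control group and at 569, 3774, 2115 and 2093 CPM in the androstenone treatment group. Control 4 was thus more than 10-fold above every other library for both chains of type I collagen. For COL1A1 the log2 fold change was -4.36, with an adjusted p of 0.409 in edgeR's test, and for COL1A2 it was -4.35. Without control 4 they were -1.64 and -1.44. COL6A1 and COL6A2, the partner chains of COL6A3, had log2 fold changes of -1.17 and -0.51. They were at 1739 and 1007 CPM in control 4, against 1068 and 650 CPM in control 2. The rise of the partner chains in control 4 was smaller than that of COL6A3.

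Of 22 genes for the folding, processing and crosslinking of collagen, 8 passed as lower, with a median of -1.66, and of -0.42 without control 4. The most abundant were PPIB, which encodes a prolyl isomerase, with a log2 fold change of 0.03, and P4HB, a subunit of prolyl 4-hydroxylase, with -0.21. Without control 4 they were at 0.42 and 0.14. P4HA3, a catalytic subunit of the same enzyme, did not overlap between the groups. It stood at 35.1, 66.8, 30.6 and 135 CPM in the control group and at 21.3, 22.5, 28.4 and 21.6 CPM in the androstenone treatment group, with a log2 fold change of -1.52, a standard error of 0.45 and an adjusted p of 0.399 in edgeR's test. Its paralog P4HA1 also did not overlap, although control 3 and androstenone 2 both stood at 34.2 CPM. ADAMTS14, a procollagen peptidase, was at 5.96 to 39.2 CPM in the control group and 3.80 to 5.87 CPM in the androstenone treatment group. Without control 4 these 3 genes had log2 fold changes of -0.92, -0.58 and -0.49, and none passed. P4HA3 and P4HA1 then missed only the limit of 1 log2 unit, with unadjusted p of 0.0136 and 0.0201 in edgeR's quasi-likelihood test. Their adjusted p was 0.453 and 0.458, and ADAMTS14 had an unadjusted p of 0.0742 in that test.

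Of 10 other leucine-rich proteoglycans, 5 passed as lower, with a median of -2.79, and of -1.77 without control 4. BGN, the gene of biglycan on the X chromosome, stood at 132, 742, 53.4 and 2158 CPM in the control group and at 41.9, 60.8, 188 and 142 CPM in the androstenone treatment group. ASPN, the gene of asporin, stood at 40.9, 584, 26.8 and 1841 CPM in the control group and at 12.7, 29.9, 5.19 and 15.9 CPM in the androstenone treatment group. Control 2 and control 4 were the highest libraries of both genes, and the groups overlapped, for ASPN through control 3 and for BGN through control 1 and control 3. The log2 fold changes were -2.83 for BGN and -5.29 for ASPN, and -1.51 and -3.76 without control 4. KERA, which encodes keratocan and lies on chromosome 5 beside LUM, did not overlap between the groups. It stood at 2.26, 10.98, 0.261 and 1.31 CPM in the control group and at 0.0105, 0, 0.167 and 0.219 CPM in the androstenone treatment group, levels that are near the counting limit. Its fitted log2 fold change was -5.22 (standard error 1.47), and -3.54 without control 2, its highest library. With limma on log2(TPM + 0.1) and log2(TPM + 1) it was -3.22 and -1.37.

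The 4 genes of the 7 lists whose groups did not overlap, P4HA3, P4HA1, ADAMTS14 and KERA, were all lower in the androstenone treatment group. They are 3.85% of the 104, against 2.64% of all genes tested that did not overlap in this direction.

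Of 15 further genes of elastic fibres and microfibrils, the tissue that FBLN1 and FBN1 serve, 1 passed as lower, MFAP2, and the median log2 fold change was -0.16. ELN, which encodes elastin, was at 4.07 to 210 CPM over the libraries with a log2 fold change of -0.14. EMILIN1, a glycoprotein of elastic fibres, was at 50.5 to 805 CPM with -1.28, and -0.10 without control 4. The PDGF ligands gave 0 of 4 past the cutoff. PDGFC was at 60.7 to 111 CPM and was the steadiest of the named ligands, with a log2 fold change of 0.03 (standard error 0.23). PDGFD, which binds PDGFRB, was at 12.6 to 287 CPM, again highest in control 4, with -2.06 (standard error 0.94), and -0.42 without control 4.

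Of 27 further fibroblast markers, 7 passed as lower, with a median of -1.39, and of -0.82 without control 4. SPARC, the gene of a collagen-binding protein that is abundant in bone, stood at 955, 3670.2, 552 and 28798 CPM in the control group and at 231, 757, 810.3 and 847 CPM in the androstenone treatment group. VIM, which encodes the intermediate filament vimentin, ran from 157 CPM in androstenone 2 to 4983 CPM in control 4. Their log2 fold changes were -3.68 and -2.48, and -1.38 and -1.43 without control 4. Of 11 matrix-degrading enzymes and their inhibitors, 2 passed as lower, MMP9 and MMP16. MMP13, a collagenase, was at 6361 CPM in control 4 and at 38.5 to 213 CPM in the other 7 libraries, and MMP2, a gelatinase, ran from 52.5 to 2773 CPM. MMP13 had a log2 fold change of -3.62 and MMP2 of -2.24, and without control 4 these were 0.55 and -0.79.

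**Figure D4:**
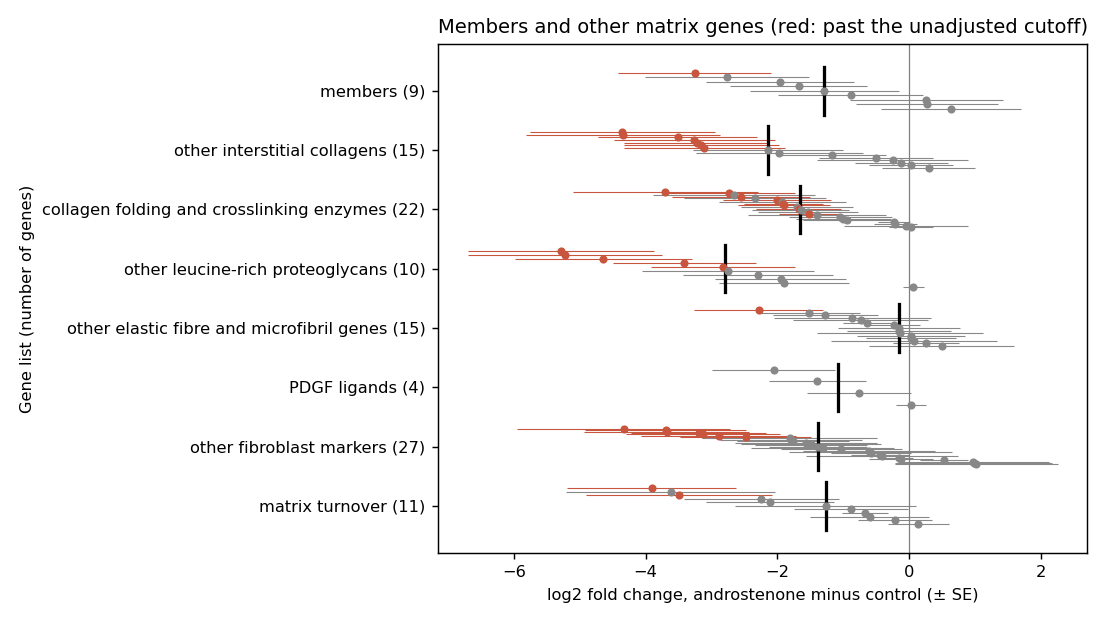
Fitted log2 fold change of each member and of each gene of the 7 other matrix lists, androstenone minus control, with its standard error as a horizontal bar. Red points passed the unadjusted cutoff and black lines mark list medians, which run from -2.79 for the other leucine-rich proteoglycans to -0.16 for the elastic fibre genes.

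Markers of some other cell types were low in the libraries where the members were low, and those of others were high there. Each of the 9 marker lists was summed in TPM per library, and each listed gene that matched an identifier had at least 1 count in some library. Control 3, androstenone 1 and androstenone 2, the lowest libraries of every member, had the highest sums of 5 epithelial markers, at 2708, 2695 and 2862 TPM, against 568 to 1649 TPM in the other libraries. They also had the highest sums of 7 motile cilium markers, at 1082, 897 and 1082 TPM, against 191 to 538 TPM. In these 3 libraries, 7 endothelial markers summed to 33.1, 52.6 and 28.2 TPM, against 182 to 259 TPM elsewhere. The 11 pericyte and smooth muscle markers summed to 91.0, 66.7 and 38.2 TPM, against 265 to 1068 TPM, and the 7 glial markers to 6.20, 9.47 and 4.81 TPM, against 32.6 to 90.5 TPM. Control 3, androstenone 1 and androstenone 2 thus had the highest epithelial and the lowest vascular and glial sums, as well as the lowest members. In bulk tissue, fewer fibroblasts and less RNA per fibroblast cannot be told apart, and the part of the tissue sampled was not tested as a source of these differences.

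Control 4 stood apart in another way. Its 9 bone markers summed to 27421 TPM, against 211 to 1074 TPM in the other libraries, with SPP1 and BGLAP, which encode osteopontin and osteocalcin, as the most abundant over all libraries. Outside control 4 the bone sum did not follow the members. It was 1074, 577 and 1006 TPM in control 3, androstenone 1 and androstenone 2, where the members were lowest. In control 1, control 2, androstenone 3 and androstenone 4 it was 480, 578, 211 and 364 TPM. Its 11 cartilage markers summed to 693 TPM, against 270 TPM in control 2 and 8.84 to 62.0 TPM elsewhere, with COL11A1 and ACAN leading. Control 4 was the highest library for 6 of the 9 members, for 71 of the 96 genes of the other matrix lists with a mean of at least 5 CPM, and for 24.5% of all genes at that level. All 9 bone markers and 8 of 11 cartilage markers passed the unadjusted cutoff as lower with androstenone, against 4.38% of all genes. After adjustment 0 passed in either list, with a smallest adjusted p of 0.393 in edgeR's quasi-likelihood test. Both counts include control 4, and no count without it is given here. Among the members, FBLN1, FBN1 and COL14A1 were not highest in control 4. The part of bone in the members' levels was not tested. The number of members past the cutoff was 0 without control 4, and also 0 without androstenone 1 and without androstenone 2.

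T cells and neurons are known to express THY1 as well. The 4 T cell markers, led by CD3E and CD2, summed to 28.9 TPM in control 4 and to 46.4 to 130 TPM in the other libraries. The 9 neuronal markers, led by NCAM1 and ADCY3, summed to 18.7 to 23.2 TPM in the androstenone libraries and to 23.3 to 96.6 TPM in the control libraries, highest in control 4. The groups nearly met, with androstenone 4 at 23.2 TPM and control 1 at 23.3 TPM. The log2 fold changes of these 9 genes ran from -3.96 to 1.56, with a median of -0.17, and 7 were below 0. Past the unadjusted cutoff, all lower with androstenone, were 1 of 11 pericyte and smooth muscle markers (CSPG4) and 2 of 9 neuronal markers (GAP43 and NCAM1). For the endothelial, glial, T cell, epithelial and cilium markers the count was 0. Of all genes tested, 4.38% passed as lower, so counts this small on short lists are given as a description.

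**Figure D5:**
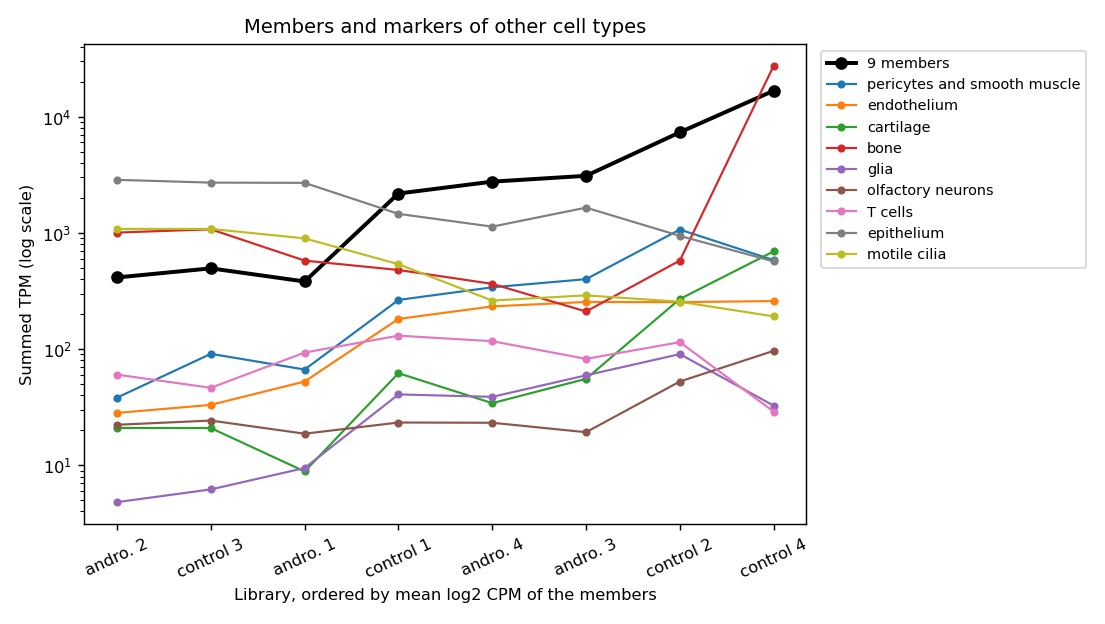
Summed TPM (log scale) of the 9 members and of 9 marker lists in each library, with libraries in order of the mean log2 CPM of the members. Epithelial and motile cilium sums are highest in the 3 libraries where the members are lowest, and the bone sum rises to 27421 TPM in control 4.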

How the data were processed

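RNA-seq was made from the OE of 4 sows, with 4 libraries per group. Reads were cleaned by the authors (fastp 0.23.1) and assigned to Sscrofa11.1 transcripts (Kallisto 0.48.0). The authors deposited estimated counts, which are not normalized, and TPM values, which they scaled for transcript length and library total. The submitters' processing notes give the tools, and the sources used here do not state how transcripts were combined into genes.

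Estimated counts were rounded, genes with at least 1 count were kept, and groups were compared with edgeR 4.0.16 (TMM, quasi-likelihood test on the 8 libraries with no term but the group) in R 4.3.3. Calls used the study's cutoff, unadjusted p below 0.05 with a change by at least 1 log2 unit, or a Benjamini-Hochberg adjusted p below 0.05. The standard error is the log2 fold change over the square root of the F statistic. Log2 CPM used a prior count of 2. Names came from a table that matched 15527 of 22516 identifiers, and coordinates, matched by symbol, from the RefSeq annotation of Sscrofa11.1. Reads of genes that share sequence, such as collagen chains, can be split by the quantification.

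The members and lists were chosen with earlier results of these data known. Genes named one by one are the members, the 2 genes of highest mean TPM in each list, up to 3 per list past the cutoff with no overlap, the 8 nearest to the members' mean, and the 2 most abundant of each marker list. Others are named as partners of a member, by a count of 5 or fewer or by a choice stated as made later. Alternatives were edgeR's exact and likelihood ratio tests, DESeq2 1.42.0, limma 3.58.1 (voom, log2(TPM + 0.1) and log2(TPM + 1)), RLE, library size only, filterByExpr, no filter, a replicate block, p below 0.01 and each library left out. Promoter motifs were not searched, as no sequences were used here.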

Additional observations from a re-analysis of the deposited data

Results flagged for a closer look

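In a group of 4, a library was marked where its gap to the nearest other exceeded Dixon's critical share of the group's range. In groups of normally distributed values, chance does this in about 1 of 20. The values checked were CPM and TPM without a log, and many genes were named for a high mean or for non-overlap. That rate therefore does not hold here, and the number marked is a description. Of 72 such checks over the members, the other named matrix genes and the marker sums, 9 were marked, and none of these was a member. In 7 of the 9 the library was control 4. Its gap was 0.937 of the control range for COL1A2, at 156373 CPM against 2581 to 12263 CPM, and 0.933 for COL1A1, at 145059 CPM against 3011 to 12522 CPM. For SPARC the gap was 0.890 of the range, at 28798 CPM against 552 to 3670.2 CPM. For the collagenase gene MMP13 it was 0.985, at 6361 CPM against 38.5 to 132 CPM. Of the collagen-processing genes, P4HA1 had a gap of 0.924, at 311 CPM against 34.2 to 55.1 CPM, and ADAMTS14 of 0.970, at 39.2 CPM against 5.96 to 6.96 CPM. The bone marker sum had a gap of 0.978, at 27421 TPM against 480 to 1074 TPM. In the androstenone treatment group, SPARC was low in androstenone 1, with a gap of 0.854, at 231 CPM against 757 to 847 CPM. P4HA3 was high in androstenone 3, with a gap of 0.830, at 28.4 CPM against 21.3 to 22.5 CPM.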

How the results depend on the processing

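The number of members past the cutoff, 1 with all libraries, was 2 with edgeR's exact test, its likelihood ratio test and DESeq2, and 0 with limma voom, limma on either TPM scale, p below 0.01, and without control 1 and control 4 together. It ranged from 0 to 3 with 1 library left out. In the other matrix lists, the count of 30 became 47 with the likelihood ratio test (45.2%, against 6.56% of all genes as lower). With limma voom it was 5 (4.81%, against 2.82%), on log2(TPM + 0.1) 9 (8.65%, against 2.00%) and on log2(TPM + 1) 8 (7.69%, against 0.793%). At p below 0.01 it was 4 (3.85%, against 0.948%), and without control 1 and control 4 it was 11 (10.6%, against 3.18%). It ranged from 6 to 51 with 1 library left out. DESeq2 gave a p for 93 of these genes. After adjustment DESeq2 called 1 member and 10 list genes, and the exact and likelihood ratio tests 0 and 2 each. The cause of these shifts was not tested. No member changed sign between normalizations. Signs turned for COL14A1, at -0.36 with limma voom and -0.35 and -0.094 on the 2 TPM scales, for FBLN1, at -0.23, -0.39 and -0.37, and for FBN1, at -0.12, -0.29 and -0.11, in that order. PDGFC turned to -0.082 and -0.080 on the 2 TPM scales. Without control 1 and control 4, PDGFRA was at 0.13 and MMP13 at 0.63. With 1 library left out, log2 fold changes ranged from -0.44 to 0.91 for COL14A1, -0.37 to 0.66 for FBLN1, -1.73 to 0.17 for PDGFRA, -0.15 to 0.42 for PPIB, -0.38 to 0.14 for P4HB, -0.69 to 0.40 for ELN, -0.14 to 0.14 for PDGFC and -4.02 to 0.55 for MMP13. The median SD of log2 CPM over members, 2.04, ranged from 1.67 to 2.18 with 1 library left out and was 1.83 without control 1 and control 4. Of the 8 nearest genes, 3 were also nearest by Pearson correlation.

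With the replicate number as a block, 0 members and 4 list genes passed (3.85% of the list genes, against 1.41% of all genes as lower). COL14A1, FBLN1 and FBN1 were then at -0.31, -0.48 and -0.43. Libraries of the same number did not deviate together, with correlations of -0.60 to 0.17 over the 4 pairs, so the numbers are taken as names only. The deposited counts limit precision most in control 1. Counting error is small for the members beside the spread between libraries.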
